A study of Homo sapiens with 8 samples.

Results

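Of the 4346 peaks in which G3BP1 was mapped on RNA of HEK293T cells, 15 lay in the gene window of creatine kinase B (CKB). The list of untreated cells had 8 of its 1421 peaks there, and the list of cells given PDS 7 of 2925. HEK293T is an established line derived from human embryonic kidney. A peak is a stretch of RNA recovered more often with G3BP1 than from the matched input. The CKB peaks are all those that lie on the minus strand of chromosome 14 inside 103985900 to 103989500 in hg19, a window of 3601 nt. Within it the peaks were selected on position alone, but CKB itself was chosen by the number, enrichment and overlap of its peaks, as known from both lists. The values below therefore describe CKB and carry no test.

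Binding was measured by seCLIP, in which UV light crosslinks proteins to the RNA they touch, G3BP1 is pulled down with an antibody (IP), and the fragments held by it are sequenced next to an input that saw no antibody. There were 8 libraries in 4 groups of 2 replicates: Ctrl IP and Ctrl input from untreated HEK293T cells, and PDS IP and PDS input from HEK293T cells exposed to 20 µM PDS for 12 h up to crosslinking. The labels give PDS without its full name. In studies of guanine quadruplexes, folded structures of guanine-rich nucleic acid, the letters commonly mean pyridostatin, a ligand of these structures. The model is 1 cell line, and nothing in the labels tells whether replicates were separate cultures. Each condition is given as 1 list for both replicates together, so a peak has 1 value and no SD, and the spread between replicates is unknown. The read depth behind a peak is unknown too. A missing peak therefore means only that no stretch passed the authors' limits there.

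CKB encodes the brain-type creatine kinase of the cytosol, which moves a phosphate group between ATP and creatine and so buffers the supply of ATP where demand changes fast. It works as a dimer with itself or with the muscle-type subunit, CKM. G3BP1 binds RNA and nucleates stress granules, the condensates into which untranslated mRNAs gather when translation initiation stalls. The study asked whether G3BP1 binds guanine quadruplexes in mRNAs, and compared its sites with and without PDS.

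The assignment to CKB rests on the window, since no hg19 annotation was used here and exons, introns and UTRs were not assigned. Whether a peak lies in mature mRNA is therefore not known. All distances and spans below are genomic and may include introns. RefSeq in another build, GRCh38.p14, lists CKB (gene 1152, protein-coding) on the minus strand, the only strand that the selection admitted. It lists 0 other genes overlapping CKB, with LOC112268130 and TRMT61A as its neighbours. On the plus strand of the window there were 0 peaks in either list, and 0 minus-strand peaks crossed its edges. The nearest peak outside was on the plus strand, 652560 nt away in the Ctrl list, and the nearest on the minus strand lay 1432522 nt away in the PDS list. The peaks of the window thus stood alone on both strands, on a chromosome that held 33 Ctrl and 88 PDS peaks in all.

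In untreated cells the 8 CKB peaks formed 3 bound regions, 2 of them close together and the other far upstream. On this strand transcription runs towards lower coordinates, so the region with the lowest coordinates is nearest to the 3′ end. The 3′-most region, at 103986096 to 103986159, was the most enriched. Its peak at 103986096 to 103986124 (29 nt) had a log2 fold of IP over input of 5.32, which is 39.94-fold, and a −log10 p of 36.8. The peak that abuts it, at 103986125 to 103986159 (35 nt), had a log2 fold of 4.84 and a −log10 p of 39. These were the only CKB peaks of either list with a log2 fold of at least 4, 2 of 8 in the Ctrl list, where 22% of all peaks reached that level, and 0 of 7 in the PDS list, where 27.6% did.

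The second Ctrl region lay 146 nt further upstream, at 103986306 to 103986379. It was made of a 28-nt peak at 103986306 to 103986333 (log2 fold 3.62, −log10 p 42.8) and a 46-nt peak at 103986334 to 103986379 (log2 fold 3.95, −log10 p 57.3). The latter was the widest of the Ctrl peaks on CKB. Enrichment in this region was below that of the 3′-most one in both of its peaks, while the −log10 p was higher in both.

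The third Ctrl region lay 1788 nt upstream of the second in genomic distance, at 103988168 to 103988238. It was cut into 4 abutting peaks over 71 nt. From the 3′ side these had log2 folds of 3.54 (103988168 to 103988199), 3.78 (103988200 to 103988216), 3.44 (103988217 to 103988229) and 3.24 (103988230 to 103988238). The highest value thus fell inside the region, and the lowest at its 5′ edge, in a peak of 9 nt. The −log10 p of the same peaks was 39.4, 58.2, 57.9 and 56, so the 3 peaks on the 5′ side were alike in p although their folds differed.

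**Figure D1:**
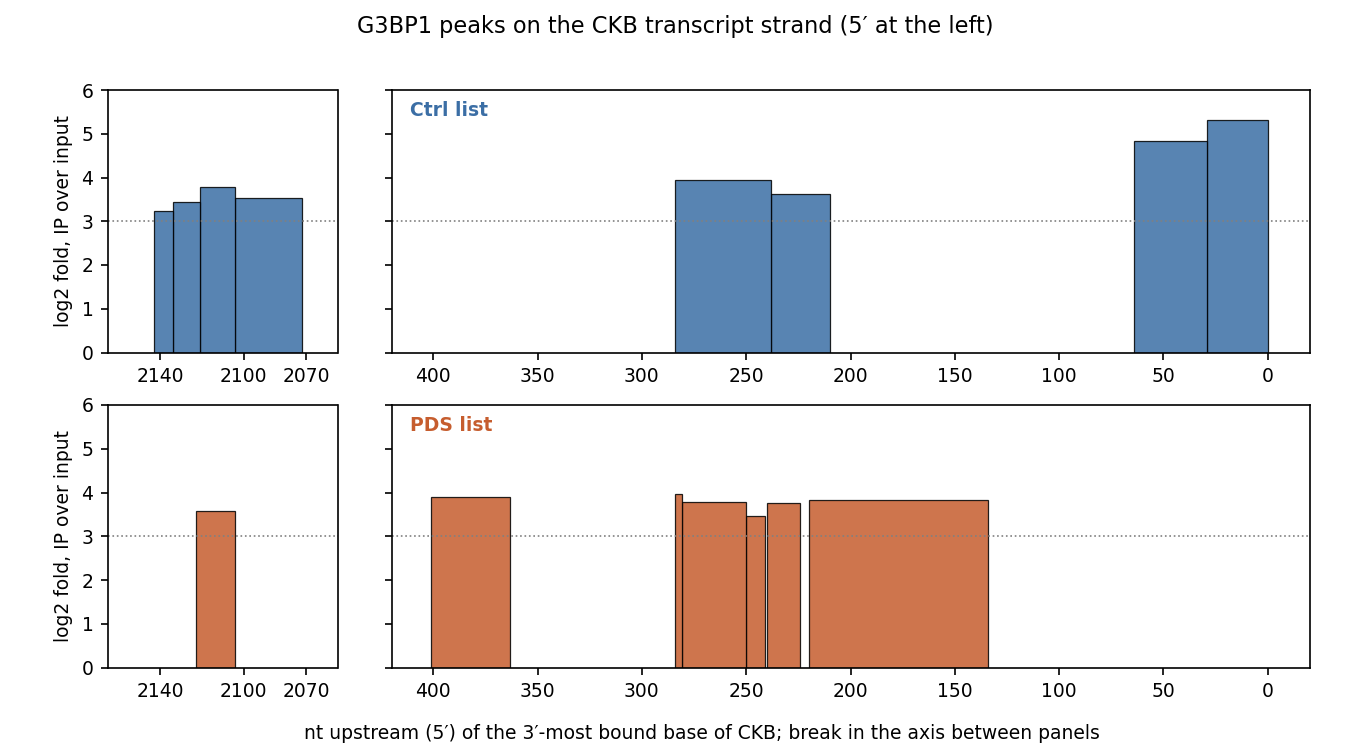
Log2 fold of IP over input of each CKB peak against its genomic position in nt upstream of the 3′-most bound base. Box height is the authors' value for both replicates together, with the Ctrl list above and the PDS list below. Box width is peak width, the dotted line marks a log2 fold of 3, and both panels of a row have the same scale with a break between them. The Ctrl boxes at 0 to 63 nt (log2 folds 5.32 and 4.84) have no PDS box at their position, and the PDS box at 363 to 400 nt (3.89) has no Ctrl box.

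In cells given PDS, 6 of the 7 CKB peaks lay on the 3′ side, between 103986230 and 103986496, and 1 lay at the 5′ site. The widest, at 103986230 to 103986315 (86 nt), had a log2 fold of 3.84 and a −log10 p of 400, the highest value in the list and read as a stand-in for a p too small to be written. It was the only CKB peak with that value in either list; 2.8% of all PDS peaks and 0.563% of all Ctrl peaks had it. Upstream of it, separated by 4 nt and then 1 nt, followed a 16-nt peak at 103986320 to 103986335 (log2 fold 3.75) and a 9-nt peak at 103986337 to 103986345 (3.46). A 31-nt peak at 103986346 to 103986376 (log2 fold 3.78) abutted the 9-nt peak. A 3-nt peak at 103986377 to 103986379 (3.96) abutted the 31-nt peak in turn. The 3-nt peak had the highest log2 fold and the lowest −log10 p (27.4) of the PDS peaks on CKB. Together these 5 peaks spanned 150 nt, of which 145 nt were covered.

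The sixth PDS peak stood apart, 79 nt upstream, at 103986459 to 103986496 (38 nt, log2 fold 3.89, −log10 p 31.5). The last was the PDS peak of the 5′ site, a 19-nt stretch at 103988200 to 103988218 (log2 fold 3.58, −log10 p 40.1). The log2 folds of the PDS peaks ran from 3.46 to 3.96 and so lay closer to each other than those of the Ctrl peaks, which ran from 3.24 to 5.32. The medians were 3.78 for PDS and 3.70 for Ctrl, and with 1 list per condition the difference has no error to be set against.

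Both lists covered a like length of CKB, 209 nt in Ctrl with a length-weighted mean log2 fold of 4.11 and 202 nt in PDS with one of 3.79. Of these, 88 nt were covered in both, which is 42.1% of the Ctrl and 43.6% of the PDS length, and 323 nt were covered in at least 1 list. By peaks, 4 of 8 Ctrl peaks overlapped a PDS peak by at least 1 nt (50%), against 51.5% of all Ctrl peaks. Of the PDS peaks, 6 of 7 overlapped a Ctrl peak (85.7%), against 30.6% of all PDS peaks. Overlap was among the values that chose CKB, and 5 of the 6 overlapped the same Ctrl region of 74 nt. Of these, the 86-nt peak at 103986230 to 103986315 did so by 10 nt only. Nothing is therefore read from the difference between 85.7 and 30.6%. When each peak had to cover at least 50% of the other, 37.5% of the Ctrl and 42.9% of the PDS peaks on CKB were shared, against 40% and 19.5% of the whole lists. When peaks up to 100 nt apart counted as shared, the CKB values were 87.5% and 100%, against 58.1% and 36.9%.

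The overlap was uneven along the window. The middle region, 103986306 to 103986379, was covered in both lists over 69 of its 74 Ctrl nt, and both lists placed its upstream border at the same base, 103986379. Downstream of it the lists parted. PDS coverage went on to 103986230, whereas the Ctrl list had no peak there and resumed at 103986159, where the PDS list had none. The 2 strongly enriched Ctrl peaks therefore overlapped no PDS peak, with 70 nt between the region and the nearest one. At the 5′ site the PDS peak lay wholly within the Ctrl region and covered 19 of its 71 nt. Its 3′ border, between bases 103988199 and 103988200, was again a border in the Ctrl list, and it spanned the most enriched of the 4 Ctrl pieces (3.78).

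Most CKB peaks ranked higher in their list by −log10 p than by enrichment, except the 2 most enriched Ctrl peaks. The lowest, median and highest −log10 p were 36.8, 49.4 and 58.2 in Ctrl and 27.4, 44 and 400 in PDS, where the medians of the whole lists were 11.9 and 17.8. All 8 Ctrl peaks and 6 of 7 PDS peaks lay above the upper quartile of −log10 p of their list (19.5 and 29.5), which 25% of peaks do by construction. By log2 fold, 6 of 8 Ctrl and 5 of 7 PDS peaks were above their list's median (3.52 and 3.59). The 3′-most Ctrl peaks ranked 19 and 55 of 1421 by log2 fold, and 110 and 90 by −log10 p. The 9-nt Ctrl peak at 103988230 to 103988238 ranked 1060 by log2 fold and 33 by −log10 p.

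The same was seen when peaks of like enrichment were set side by side, a comparison chosen after the values had been seen. Among the 673 other Ctrl peaks with a log2 fold within 0.25 of that 9-nt peak, the median −log10 p was 8.37, and 1 had a higher value than its 56. For the most enriched Ctrl peak the picture was different. Of 24 other Ctrl peaks within 0.25 of its log2 fold, with a median −log10 p of 42.3, 66.7% had a higher value than its 36.8. For the Ctrl peak with a log2 fold of 4.84, the 67 such peaks had a median of 28.9. Of these, 19.4% had a higher value than its 39. Over the 6 Ctrl peaks with a log2 fold under 4, the share of such neighbours with a higher −log10 p ran from 0.149 to 2.98%. For the PDS peaks the share ran from 0, for the 86-nt peak at the stand-in value, to 25.3% for the 3-nt peak.

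**Figure D2:**
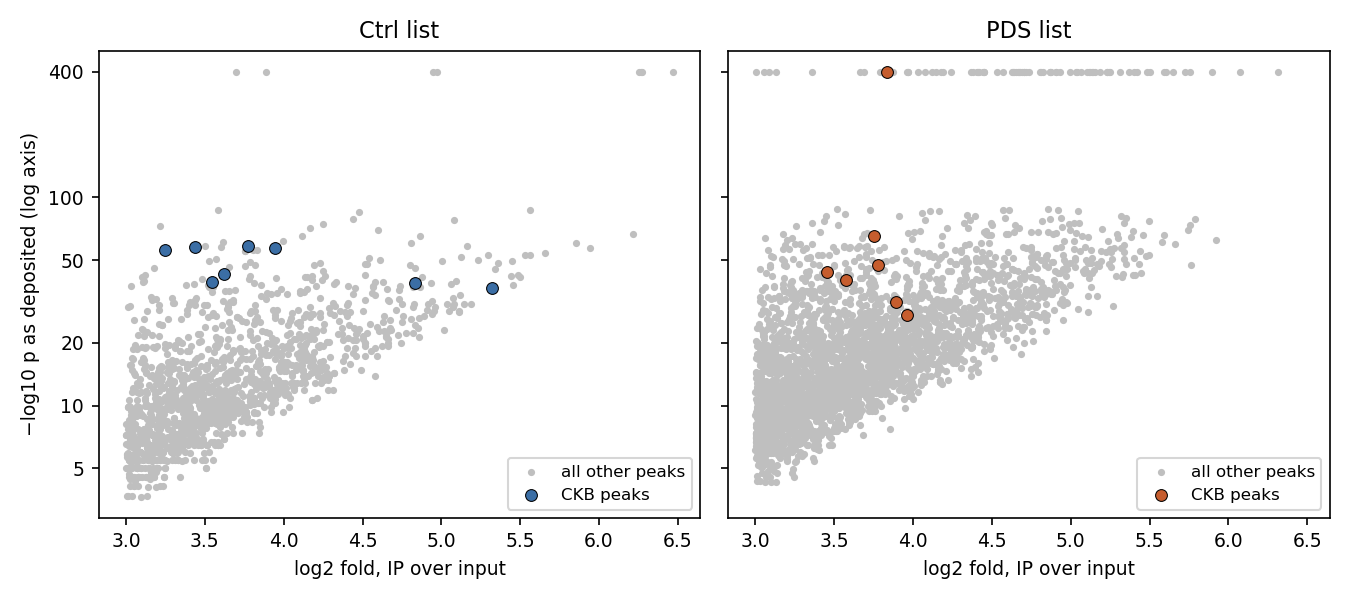
−log10 p (log axis, as deposited) against log2 fold of IP over input for every peak of the Ctrl list (left, 1421 peaks) and of the PDS list (right, 2925 peaks), with CKB peaks in colour and all others in grey. The 6 Ctrl peaks of CKB with log2 folds of 3.24 to 3.95 lie in the upper part of the grey cloud, whereas the 2 peaks at 4.84 and 5.32 lie within it. In the PDS list 1 CKB peak sits at the stand-in value of 400 and the others at 27.4 to 64.9.

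CKB peaks were narrow in both lists, and those of the Ctrl list adjoined each other. Their median width was 28.5 nt in Ctrl (9 to 46 nt) and 19 nt in PDS (3 to 86 nt), against 74 and 63 nt over the whole lists. All 8 Ctrl peaks and 6 of 7 PDS peaks were under 50 nt wide, as were 24.3% of all Ctrl and 38.1% of all PDS peaks. All 8 Ctrl peaks touched another peak, a property of 20.3% of the Ctrl list. Of the 7 PDS peaks, 3 did, against 40.5% of the PDS list, and a further pair was separated from a neighbour by gaps of only 4 and 1 nt. The number of peaks on CKB therefore depended on how pieces were joined. Peaks that touch merged into 3 Ctrl and 5 PDS stretches, which turned the order of the lists. Peaks within 50 nt merged into 3 regions in each, and those within 100 nt into 3 and 2.

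To place CKB among the other bound transcripts, same-strand peaks of both lists were joined into loci wherever no gap exceeded 10000 nt. A locus replaces the gene here and may hold more or less than 1 gene. With 8 Ctrl peaks, CKB ranked 25th of 667 loci of the Ctrl list, tied with 11 others. With 7 PDS peaks it ranked 81st of 950 loci of the PDS list, tied with 14 others. Ranks in lists of different lengths do not measure a change between them. CKB had fewer PDS than Ctrl peaks, as had 12.9% of the 425 loci with peaks in both lists. That share leaves out loci with Ctrl peaks and no PDS peak, among them 200 loci with 1 Ctrl peak. Among the 52 loci with at least 5 Ctrl peaks the share was 21.2%. Merging within 50 nt made the counts of CKB equal. Its highest log2 fold was the 10th highest among Ctrl loci and the 273rd among PDS loci, where the median over loci was 3.53 and 3.59.

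Among the 52 loci with at least 5 Ctrl peaks, CKB had the third highest median −log10 p (49.39, median over these loci 15.6) and the fourth lowest median peak width. It was 1 of 4 of these loci in which every Ctrl peak touched another. Its median log2 fold (3.70) was in the middle, at rank 26. In the PDS list, among the 147 loci with at least 5 PDS peaks, CKB ranked 10th by median −log10 p (43.96, median over these loci 19.9). It ranked 116th by highest log2 fold. By the percentage of peaks that touch another (42.86%, median over these loci 56.1%) it ranked 87th, tied with 3 others. Its Ctrl peaks extended over 2143 nt, the eighth shortest span of the 52, where the median was 9580 nt.

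**Figure D3:**
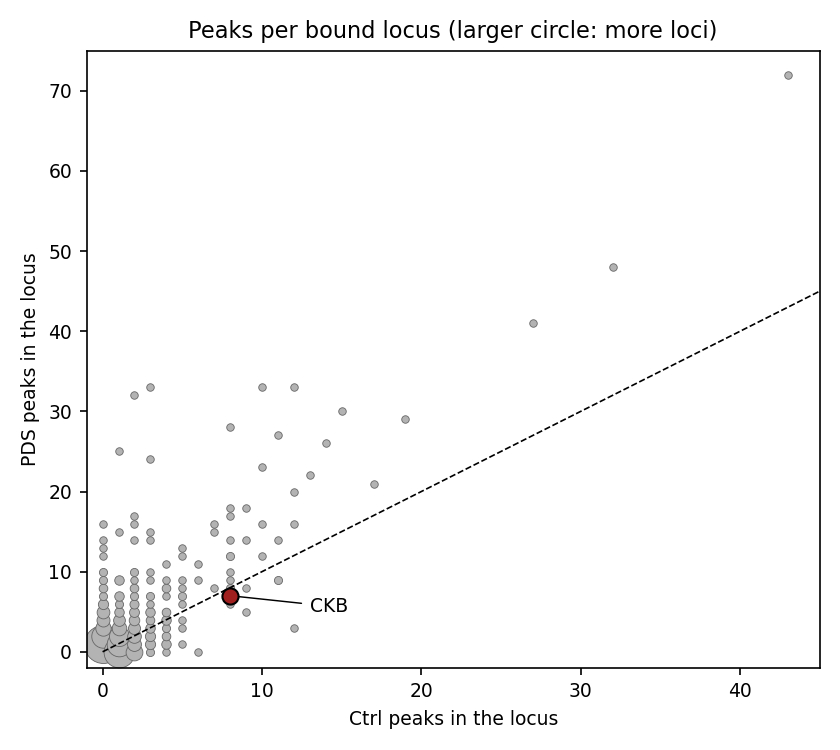
Number of PDS peaks against number of Ctrl peaks for the 1192 loci of both lists, with circle size growing with the number of loci at a point and equal counts on the dashed line. CKB, with 8 Ctrl and 7 PDS peaks, lies just under the line. Of the 425 loci with peaks in both lists, 55 lie under it. So do all loci with Ctrl peaks and no PDS peak, among them 200 with 1 Ctrl peak.

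The loci most like CKB in their numbers of peaks covered more nt. The nearest 3 by both counts lay on chromosome 12 at 57033784 to 57039754 (minus strand, 8 Ctrl and 8 PDS peaks), on chromosome 16 at 27472785 to 27481475 (minus strand, 8 and 6) and on chromosome 19 at 36209042 to 36224211 (plus strand, 8 and 8). Their Ctrl peaks covered 431, 530 and 557 nt, against 209 nt on CKB, and merged within 50 nt into 6, 6 and 7 regions, against 3. Their PDS peaks merged into 6, 3 and 6 regions, against 3, so the chromosome 16 locus had as many PDS regions as CKB. Their highest log2 folds were 5.23, 4.67 and 4.36 in Ctrl and 5.08, 4.38 and 4.05 in PDS, beside 5.32 and 3.96 on CKB. CKB thus had the fewest bound nt of these 4 loci in both lists, the highest Ctrl value and the lowest PDS value among their strongest peaks.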

How the data were processed

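The data are 1 peak list per condition, each combining replicates 1 and 2. The submitters' processing notes name hg19 as build and STAR, cutadapt and UMI-tools as software. How peaks were called, filtered and combined over replicates is not given in the sources used here. The lists have no header. The deposited columns were read as the authors' −log10 p per peak and the authors' log2 fold of IP over input, from their values and the usual eCLIP format. Starts were read as counted from 0 and are printed counted from 1.

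Peaks were shared if at least 1 nt overlapped on the same strand. Regions join peaks within 50 nt, and loci chain both lists over gaps of up to 10000 nt (python 3.11.15, numpy 2.4.6, scipy 1.17.1). Overlap and chaining were tested on simulated data. The window, the comparisons and the rule for similar loci (nearest in both peak counts, ties by nearest covered length) were chosen with earlier results of these data known. All CKB peaks are described. The peak sequences and the other genes of creatine metabolism (CKM, CKMT1A, CKMT1B, CKMT2, GAMT, GATM, SLC6A8) were not analysed here, since no hg19 genome or annotation was used.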

Additional observations from a re-analysis of the deposited data

How the results depend on the processing

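Across 36 alternative values, 14 differed from the main one by more than 1.5 times (counts, lengths, ranks, linear folds) or left its exact 95% binomial interval (shares), and 22 did not. That interval treats peaks as independent, which abutting peaks are not, so it serves only as a cut-off and measures no spread. For the Ctrl share it is wide (15.7 to 84.3%). A fall from 50 to 25% with the PDS list shortened to the Ctrl length therefore counts among the 22. The PDS share was then 80%. With a minimum log2 fold of 4, the Ctrl and PDS peak counts on CKB were 2 and 0, covering 64 and 0 nt. They were 3 and 5 after merging at 0 nt, 3 and 3 at 50 nt, and 3 and 2 at 100 nt. Counting peaks up to 100 nt apart as shared gave 87.5% for Ctrl and 100% for PDS, against 58.1% and 36.9% of the whole lists. With the minimum log2 fold of 4 in both lists, the Ctrl share was 0, and 0 PDS peaks were left to give one. The rank by merged regions was 58 in Ctrl and 127 in PDS. The causes were not tested. Stricter limits and merging cannot add features by construction. A −log10 p of at least 10 removed 0 CKB peaks. No paired analysis was possible because each peak has 1 value for both replicates, and leaving out a replicate was not possible either. Depth is unknown, which limits any statement on a missing peak.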
